A study of Mus musculus with 7 samples.

Results

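The mitochondrial ribosomal protein genes were taken as every gene of the array table whose symbol starts with Mrpl or Mrps and a digit, which gave 76 of 9999 genes. By symbol, 47 of them code for the large subunit and 29 for the small subunit. Mrpl30 and Mrpl53 also match but lie only on probe sets shared by several gene symbols and were not analysed here.

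RNA was from RAW264.7, a mouse macrophage-like line grown in medium with serum, taken at a time point the labels call T0 and without treatment. Of 7 Affymetrix arrays, 3 were labelled wild type (RAW WT) and 4 Gfi1 knockout (RAW GfI1-1). Gfi1 is a zinc-finger repressor of blood cell genes, and both groups share the same parental line. The labels do not say how or where Gfi1 was disrupted, nor whether the knockout arrays come from 1 clone.

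The mitochondrial ribosome is a ribosome of bacterial descent that sits at the inner membrane and makes the few respiratory chain proteins encoded by mitochondrial DNA. Its RNA comes from mitochondrial DNA, but all of its proteins are encoded in the nucleus, made in the cytosol and imported. Many of them have a counterpart in bacteria, and the others were added during the evolution of mitochondria. Genes of this kind often carry promoter motifs of NRF1 and of the ETS factor GABPA, which are known as regulators of nuclear genes for mitochondrial proteins.

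The promoters of 4 members are printed because these were the largest rises and falls in the knockout arrays among members with exactly 1 promoter in the RefSeq table. Each shows the 250 bases before the annotated start, 5′ to 3′ on the strand of the gene, in assembly GRCm38.p6. Capitals mark matches on either strand to the NRF1 motif (GCGCA, any 1 base, then GCGC) or to CCGGAAG, a core motif of ETS factors such as GABPA. Mrps21 lies at chr3:95871515-95871764 on the minus strand and has 1 NRF1 match. Mrpl34 lies at chr8:71464676-71464925 on the plus strand and has 1 ETS match. Mrpl45 lies at chr11:97315466-97315715 on the plus strand and has 2 NRF1 matches. Mrps10 lies at chr17:47368947-47369196 on the plus strand and has no match in these bases to either motif.
Mrps21: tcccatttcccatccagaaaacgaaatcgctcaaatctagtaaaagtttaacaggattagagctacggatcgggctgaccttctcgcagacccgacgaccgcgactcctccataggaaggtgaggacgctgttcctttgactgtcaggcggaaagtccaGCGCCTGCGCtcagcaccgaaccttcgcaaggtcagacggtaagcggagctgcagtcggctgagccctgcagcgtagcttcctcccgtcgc
Mrpl34: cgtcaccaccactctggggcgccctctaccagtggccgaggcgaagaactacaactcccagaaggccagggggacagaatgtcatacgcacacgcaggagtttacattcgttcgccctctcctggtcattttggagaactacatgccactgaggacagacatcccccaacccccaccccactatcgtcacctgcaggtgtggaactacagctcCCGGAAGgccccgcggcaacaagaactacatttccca
Mrpl45: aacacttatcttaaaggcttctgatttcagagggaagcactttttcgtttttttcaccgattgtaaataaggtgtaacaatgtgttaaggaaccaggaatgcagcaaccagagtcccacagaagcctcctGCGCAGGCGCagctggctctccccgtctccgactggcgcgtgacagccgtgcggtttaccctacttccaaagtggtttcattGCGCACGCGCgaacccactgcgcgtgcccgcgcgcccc
Mrps10: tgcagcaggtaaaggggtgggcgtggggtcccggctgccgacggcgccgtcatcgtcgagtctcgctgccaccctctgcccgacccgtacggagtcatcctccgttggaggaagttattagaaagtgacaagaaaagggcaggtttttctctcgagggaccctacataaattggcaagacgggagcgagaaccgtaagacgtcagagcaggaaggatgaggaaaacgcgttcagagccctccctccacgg

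Of the 76 members, 67 had a promoter in that table, and 9 did not. In a window of 250 bases before to 50 bases after the start, CCGGAAG was present in 25 of the 67 (37.3%), beside 9.93% of all genes in the promoter table and 22.0% of the 8208 array genes found in it. The NRF1 motif was present in 12 members (17.9%), beside 5.19% of all genes and 12.7% of the array genes. AAGATGGC, a motif of YY1, was also present in 12 members (17.9%), beside 3.19% and 5.81%. The E-box CACGTG, which MYC binds among other factors, was present in 5 members (7.46%), beside 8.09% and 12.1%. Both strands were searched, no motif contains another, and a match describes the letters only.

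The members did not move as a block between wild-type and knockout arrays. By limma with Benjamini-Hochberg adjustment over all 9999 genes at an adjusted p of 0.05, 31 of the 76 passed (40.8%), beside 43.1% of all genes. In the knockout arrays 18 rose, 13 fell and 45 did not pass, while 21.5% of all genes rose and 21.6% fell. The share of members that passed was therefore near the share of all genes. The median log2 difference, knockout minus wild type, was 0.08 over the members and -0.01 over all genes.

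Their differences were mostly small. The median size of the log2 difference was 0.21 over the members and 0.28 over all genes. Only 10 members (13.2%) differed by at least 0.5 log2 units, and only Mrps21 (1.32%) by at least 2-fold, against 27.1% and 8.16% of all genes. No member had a mean signal under the 40th percentile of all genes, and sizes were not compared with genes of like signal. The 18 rises ran from 0.21 to 0.75 on the log2 scale with a median of 0.33, and the 13 falls from -1.19 to -0.26 with a median of -0.56. The 45 members that did not pass ran from -0.30 to 0.33. Knockout and wild-type values did not overlap in 42 members (55.3%), beside 54.5% of all genes. The knockout arrays were above in 26 of them and below in 16, and over all genes above in 26.5% and below in 27.9%.

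**Figure D1:**
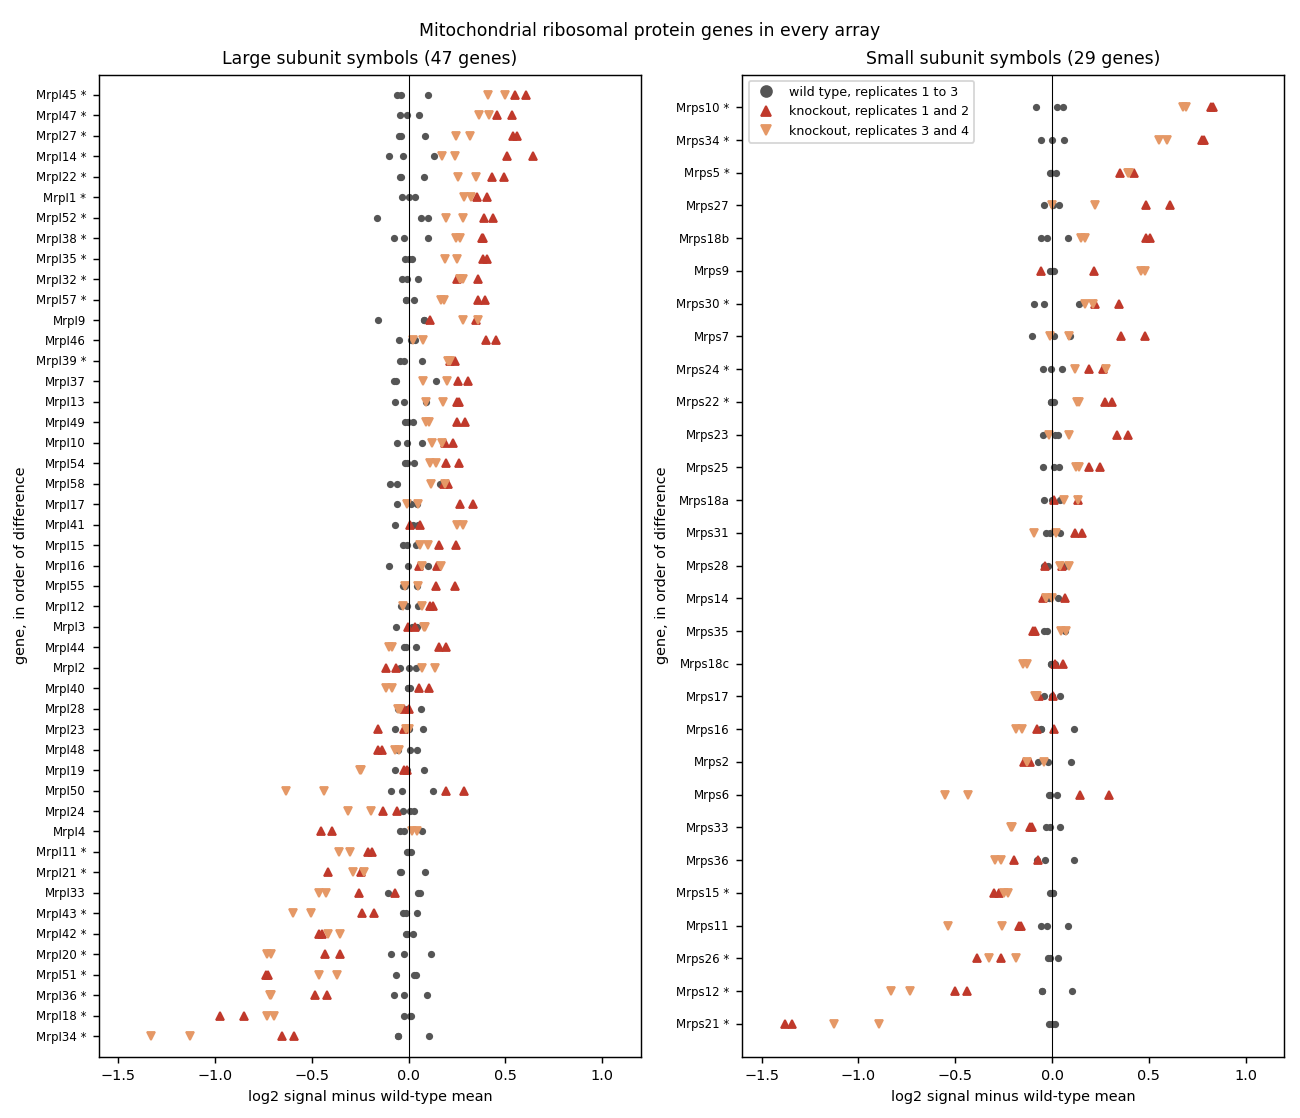
Log2 signal of each of the 76 members on every array, as the difference from the wild-type mean, with large and small subunit members in separate panels, circles for wild type, upward triangles for knockout replicates 1 and 2, downward triangles for replicates 3 and 4, and an asterisk after each gene that passed. Mrps21 lies lowest, with a difference of -1.19, and Mrps10 highest, with 0.75.

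The knockout arrays fell into 2 pairs, replicates 1 and 2 and replicates 3 and 4, which the labels do not name. Over the members, the standard deviation of the log2 difference between 2 arrays was 0.07 to 0.08 within a knockout pair, 0.21 to 0.24 between the pairs and 0.04 to 0.11 among wild-type arrays. Between a wild-type and a knockout array it was 0.34 to 0.39. In limma, each pair was then taken as 1 random block and the 3 wild-type arrays together as another, with a shared within-block correlation of 0.79. That fit thus set 1 wild-type block against 2 knockout blocks, and 4 members passed. These were Mrps10 (adjusted p 0.0275) and Mrps34 (adjusted p 0.0402), which were higher, and Mrps21 (adjusted p 0.0151) and Mrpl18 (adjusted p 0.0215), which were lower. In that fit the other 27 members that passed without blocks had adjusted p-values of 0.0786 to 0.549, and 9.04% of all genes passed. Rises and falls below are those of the fit without blocks. The labels call the replicates biological but name no separate cultures, so a p-value here reflects the spread between arrays, which may be technical.

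Leaving out each array in turn, 8 of the 18 rises and 10 of the 13 falls passed every time. The same count was not made over all genes, so it sets nothing apart in the members. The rises that did were Mrpl1, Mrpl22, Mrpl32, Mrpl45, Mrpl47, Mrps5, Mrps10 and Mrps34. The falls that did were Mrpl18, Mrpl20, Mrpl34, Mrpl36, Mrpl42, Mrpl51, Mrps12, Mrps15, Mrps21 and Mrps26. Without wild-type replicate 2 there were 8 rises, where 13.8% of all genes rose, and without wild-type replicate 3 there were 9, where 14.0% rose. Falls numbered from 11 to 15 over these fits. Without knockout replicates 1 and 2 there were 18 rises and 22 falls, where 27.7% of all genes rose and 29.3% fell (57.0% passed). Without replicates 3 and 4 there were 35 rises and 16 falls, where 34.1% of all genes rose and 34.1% fell (68.1% passed). Tested against a fold of 1.2 in place of no change, 3 members were higher and 5 lower, and 17.5% of all genes passed.

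The signals lay well within the range of the array. The mean log2 signal of a member over the 7 arrays ran from 6.92 to 11.10, with none under the 40th percentile of all genes and none above 12. Median intensity per array ran from 93.8 to 101. Of 7 macrophage markers, 6 passed as lower in the knockout arrays, and Itgam differed by -0.15 and did not pass (limma adjusted p 0.628). The log2 of the summed intensity of all 7 was 14.58 to 14.59 on wild-type arrays and 14.00 to 14.12 on knockout arrays. No T cell or B cell marker was measured, and the 1 measured fibroblast marker (Pdgfrb) and the 1 measured erythroid marker (Hba-a2) were lower too. The part of the lower macrophage markers in the members' differences was not tested. The Gfi1 signal was 2.83 ± 0.16 (SD, n = 3) on wild-type and 4.47 ± 0.58 (SD, n = 4) on knockout arrays. It was thus higher on the arrays labelled knockout (limma adjusted p 0.00447), but it was dim, with a mean above that of only 6.02% of all genes. Where the Gfi1 probes lie relative to the disrupted sequence is not known here, so this signal checks nothing about the label. In cultures measured whole, fewer cells of a type and less RNA per cell cannot be told apart.

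Large and small subunit genes were compared array by array. Of the 47 large subunit genes, 12 rose, 9 fell and 26 did not pass (44.7% passed), with a median log2 difference of 0.11. Of the 29 small subunit genes, 6 rose, 4 fell and 19 did not pass (34.5% passed), with a median of 0.03. Against the wild-type mean, the large subunit median was 0.19, 0.14, 0.07 and 0.08 on knockout replicates 1 to 4. The small subunit median was 0.12, 0.01, -0.01 and 0.04 on the same arrays. The large subunit median was thus the higher on each knockout array, by 0.07, 0.13, 0.08 and 0.04 log2 units. On the wild-type arrays the 2 subunit medians lay within 0.01 of each other.

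Over single genes, the log2 differences ran from -0.93 to 0.52 in the large and from -1.19 to 0.75 in the small subunit. Means over the large subunit genes, at 0.09, 0.05, -0.05 and -0.03 on knockout replicates 1 to 4, were below 0 on 2 arrays where the medians were above it. Small subunit means were 0.10, 0.05, -0.05 and -0.01. The offset between the medians, 0.07 over all arrays, was 0.01 when all probe sets of a gene were averaged. No p-value was computed for it. With Mrps30 and Mrps18a counted as large subunit proteins, where they lie in the structure, and Mrps36 left out, the medians were 0.11 over 49 and 0.02 over 26 genes.

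**Figure D2:**
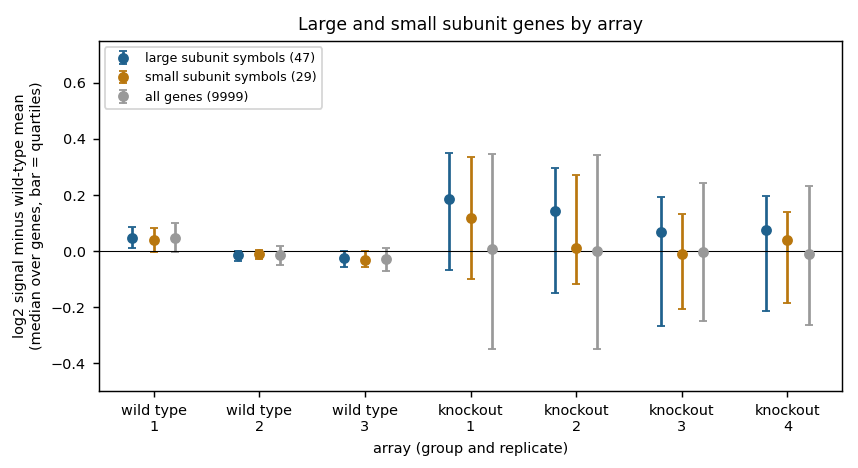
Median log2 difference from the wild-type mean over the 47 large subunit genes, the 29 small subunit genes and all genes on each array, with bars from the lower to the upper quartile over genes. The large subunit median is the higher on all 4 knockout arrays, by 0.04 to 0.13, and the bars of both subunits overlap throughout.

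Rises and falls by role, given further below, are to be read beside the 21.5% of all genes that rose and the 21.6% that fell. The members that passed by role are to be read beside the 43.1% of all genes. In the large subunit they were 1 of 3 for the stalk, 2 of 6 for the central protuberance, 3 of 6 for the polypeptide exit, 9 of 20 for the other genes with a bacterial counterpart and 6 of 12 for the mitochondria-specific genes. In the small subunit they were 2 of 5 for the head, 4 of 12 for the body and platform and 4 of 12 for the other genes. With so few genes in each, no group was set apart from all genes by a test.

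Among the genes for the L7/L12 stalk, the flexible arm that recruits translation factors, Mrpl11 fell and the other 2 did not pass. Mrpl11 measured 8.65, 8.67 and 8.65 on the wild-type arrays and 8.46, 8.45, 8.35 and 8.30 on the knockout arrays. Its values did not overlap, with a log2 difference of -0.26 (SE 0.06, limma adjusted p 0.0144). The adjusted p was 0.0625 without wild-type replicate 2. Mrpl10, which anchors the stalk, was higher by 0.18 (SE 0.06) with an adjusted p of 0.0504, and Mrpl12, its L7/L12 protein, differed by 0.07 (SE 0.06, adjusted p 0.407).

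In the central protuberance, which faces the small subunit, 1 of 6 genes rose and 1 fell. Mrpl18 measured 9.15, 9.18 and 9.19 on the wild-type arrays and 8.33, 8.20, 8.48 and 8.45 on the knockout arrays. All 4 knockout arrays were lower than every wild-type array. The log2 difference was -0.81 (SE 0.08, limma adjusted p 0.000373), which is 57.0% of the wild-type signal. Mrpl38 rose by 0.32 (SE 0.07, adjusted p 0.0112), but its adjusted p was 0.0527 without wild-type replicate 3. Mrpl58, a peptidyl-tRNA hydrolase built into the ribosome, differed by 0.17 (SE 0.08, adjusted p 0.113).

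At the exit of the polypeptide tunnel, where new chains meet the inner membrane, 3 of 6 genes rose and none fell, with a median of 0.27. Mrpl45, which tethers the ribosome to the membrane, measured 9.43, 9.29 and 9.27 on the wild-type and 9.88, 9.94, 9.74 and 9.83 on the knockout arrays. Its groups were apart, with a difference of 0.52 (SE 0.07, limma adjusted p 0.0017). Mrpl47, the counterpart of bacterial L29, measured 9.29, 9.20 and 9.23 on the wild-type and 9.78, 9.70, 9.65 and 9.61 on the knockout arrays, a difference of 0.44 (SE 0.07, adjusted p 0.00186). Mrpl22, the counterpart of L22 that lines the tunnel, measured 10.05, 9.92 and 9.92 on the wild-type and 10.46, 10.39, 10.22 and 10.31 on the knockout arrays, a difference of 0.38 (SE 0.08, adjusted p 0.00714). These 3 were higher on every knockout array and passed without each array in turn. The others, Mrpl17, Mrpl23 and Mrpl24, differed by 0.16, -0.05 and -0.18 and did not pass.

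The other 20 large subunit genes with a bacterial counterpart went both ways, with 5 rises, 4 falls and a median of 0.08. Mrpl34 measured 8.96, 8.81 and 8.81 on the wild-type arrays and 8.27, 8.21, 7.53 and 7.73 on the knockout arrays. It was lower on all 4 knockout arrays, with differences of -0.62 in the first pair and -1.23 in the second. Over both, the log2 difference was -0.93 (SE 0.19, limma adjusted p 0.00741). Mrpl36 measured 7.93, 7.76 and 7.81 on the wild-type arrays and 7.41, 7.35, 7.12 and 7.12 on the knockout arrays, a difference of -0.58 (SE 0.10, adjusted p 0.00322). Mrpl20 measured 9.09 ± 0.11 (SD, n = 3) on the wild-type arrays and 8.74, 8.66, 8.36 and 8.38 on the knockout arrays, a difference of -0.56 (SE 0.12, adjusted p 0.00787). Both were lower on every knockout array, and in both the second pair was the lower one.

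The 5 rises in the same group ran from 0.29 to 0.41. Mrpl1, the counterpart of L1 at the exit site for tRNA, measured 7.74, 7.71 and 7.68 on the wild-type arrays and 8.05 ± 0.05 (SD, n = 4) on the knockout arrays. Its knockout arrays lay close together and above the wild type, with a difference of 0.34 (SE 0.06, limma adjusted p 0.00345), although its dimmer second probe set pointed the other way. Mrpl32 rose by 0.29 (SE 0.06, adjusted p 0.00721). Mrpl27, the counterpart of L27 near the peptidyl transferase centre, rose by 0.41 (SE 0.10, adjusted p 0.0129), with an adjusted p of 0.0564 without wild-type replicate 2. Mrpl14 rose by 0.39 (SE 0.13, adjusted p 0.0449) and did not pass in 5 of the 7 fits with 1 array left out, in which its adjusted p reached 0.146. Mrpl35 rose by 0.31 (SE 0.07, adjusted p 0.0134) with 0.0548 without wild-type replicate 3, and Mrpl21 fell by 0.29 (SE 0.07, adjusted p 0.0148) with 0.0528 without wild-type replicate 1.

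Of the 12 mitochondria-specific genes of the large subunit, 3 rose and 3 fell, with a median of 0.16. Mrpl51 measured 10.36, 10.46 and 10.45 on the wild-type arrays and 9.70, 9.69, 9.96 and 10.05 on the knockout arrays. Here the first pair was the lower one, with a difference over all arrays of -0.57 (SE 0.11, limma adjusted p 0.00507). Mrpl42 measured 10.36, 10.37 and 10.40 on the wild-type arrays and 9.93, 9.91, 10.03 and 9.96 on the knockout arrays, a difference of -0.42 (SE 0.06, adjusted p 0.00132). Mrpl43 fell by 0.38 (SE 0.11, adjusted p 0.0309) but did not pass in 4 of the 7 fits with 1 array left out, with an adjusted p of up to 0.0946. Mrpl52 rose by 0.33 (SE 0.09, adjusted p 0.0282), Mrpl57 by 0.28 (SE 0.08, adjusted p 0.0254) and Mrpl39 by 0.22 (SE 0.06, adjusted p 0.0195). None of these 3 rises passed in every fit with 1 array left out, where their adjusted p-values reached 0.0856, 0.0889 and 0.0862.

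In the head of the small subunit, 2 of 5 genes with a bacterial counterpart rose and none fell, with a median of 0.23. Mrps10, the counterpart of S10, measured 8.92, 8.88 and 8.78 on the wild-type arrays and 9.69, 9.68, 9.54 and 9.55 on the knockout arrays. Every knockout array was higher than every wild-type array, and the difference of 0.75 (SE 0.07, limma adjusted p 0.000284) was a 1.69-fold rise. Mrps24 rose by 0.21 (SE 0.07, adjusted p 0.0349) but did not pass in 6 of the 7 fits with 1 array left out, with an adjusted p of up to 0.113. Mrps9 and Mrps7 differed by 0.27 (SE 0.13, adjusted p 0.138) and 0.23 (SE 0.13, adjusted p 0.191). Mrps14 measured 10.91, 10.90 and 10.95 on the wild-type arrays and 10.99, 10.88, 10.92 and 10.89 on the knockout arrays, and its groups overlapped.

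In the body and platform of the small subunit, 1 of 12 genes with a bacterial counterpart rose and 3 fell, with a median of -0.10. Mrps21 measured 9.26, 9.25 and 9.28 on the wild-type arrays and 7.92, 7.89, 8.14 and 8.37 on the knockout arrays. It was lower on all 4 knockout arrays and had the largest difference of all 76 members. The log2 difference was -1.19 (SE 0.12, limma adjusted p 0.000416), or 44.0% of the wild-type signal, and a much dimmer second probe set did not share it. Mrps12, the counterpart of S12 at the decoding centre, measured 8.67, 8.51 and 8.51 on the wild-type arrays and 8.06, 8.12, 7.73 and 7.83 on the knockout arrays, a difference of -0.63 (SE 0.11, adjusted p 0.00405). Mrps15 measured 9.74, 9.74 and 9.72 on the wild-type arrays and 9.46, 9.43, 9.49 and 9.51 on the knockout arrays, a difference of -0.26 (SE 0.05, adjusted p 0.0074). Both were lower on every knockout array. The 1 rise of this group was Mrps5, which measured 7.46, 7.43 and 7.43 on the wild-type arrays and 7.79, 7.86, 7.83 and 7.84 on the knockout arrays. Its 4 knockout arrays agreed within a standard deviation of 0.03, with a difference of 0.39 (SE 0.05, adjusted p 0.00139).

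Of the 12 other genes with small subunit symbols, 3 rose and 1 fell, with a median of 0.13. Mrps34, a mitochondria-specific protein of the small subunit, measured 9.50, 9.44 and 9.38 on the wild-type arrays and 10.23, 10.22, 9.99 and 10.04 on the knockout arrays. It was higher on all 4 knockout arrays, by 0.68 (SE 0.08, limma adjusted p 0.000823), a 1.60-fold rise. Mrps26 measured 9.82, 9.77 and 9.77 on the wild-type arrays and 9.52, 9.40, 9.46 and 9.60 on the knockout arrays, a difference of -0.29 (SE 0.07, adjusted p 0.0124). Mrps22 rose by 0.21 (SE 0.07, adjusted p 0.0402) but reached 0.116 with 1 array left out. Mrps27 differed by 0.33 (SE 0.14, adjusted p 0.103). Of the symbols that mislead, Mrps30 rose by 0.24 (SE 0.08, adjusted p 0.0483) with 0.169 without wild-type replicate 3, and Mrps18a differed by 0.08 (SE 0.06, adjusted p 0.299). Mrps36, now known as a subunit of the oxoglutarate dehydrogenase complex and not of the ribosome, differed by -0.21 (SE 0.08, adjusted p 0.076).

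**Figure D3:**
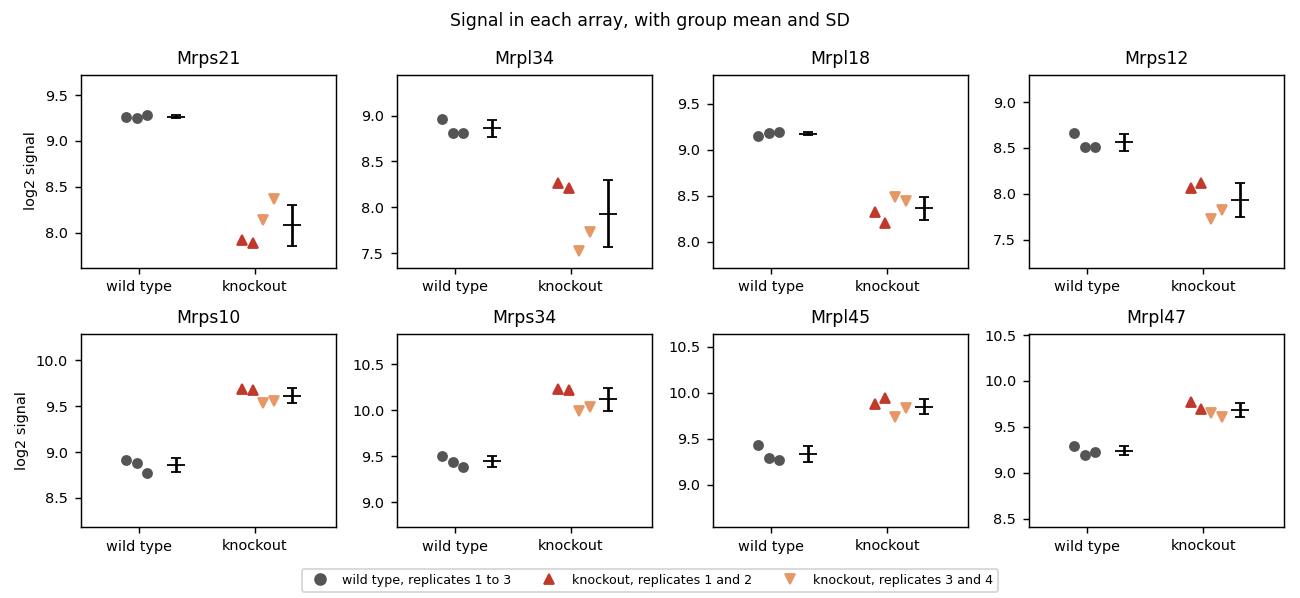
Log2 signal on each array for the 4 largest falls (Mrps21, Mrpl34, Mrpl18 and Mrps12) and the 4 largest rises (Mrps10, Mrps34, Mrpl45 and Mrpl47), with circles for wild type, upward triangles for knockout replicates 1 and 2 and downward triangles for replicates 3 and 4, and black bars for the group mean and its SD. In each of the 8 genes the knockout arrays lie wholly on one side of the wild-type arrays.

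In 6 members (7.89%) the 2 knockout pairs lay on opposite sides of all 3 wild-type arrays, beside 8.65% of all genes. Mrpl50 measured 7.94, 7.78 and 7.72 on the wild-type arrays, 8.01 and 8.10 on knockout replicates 1 and 2, and 7.18 and 7.38 on replicates 3 and 4. Its pairs thus differed from the wild-type mean by 0.24 and -0.54, and over all 4 arrays by -0.15 (SE 0.23, limma adjusted p 0.637). Mrps6, the counterpart of S6, measured 10.18, 10.18 and 10.22 on the wild-type arrays, 10.49 and 10.34 on the first pair and 9.76 and 9.64 on the second. The pairs differed from the wild-type mean by 0.22 and -0.50. The others were Mrps18c, Mrpl40 and Mrpl44, with the first pair above and the second below, and Mrpl2, with the reverse, and their pairs differed by 0.18 to 0.27 in size.

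Several genes had more than 1 probe set, a group of short probes for 1 transcript region, and these did not always give the same answer. Of the 76 members, 34 had several, and the second brightest probe set had the same sign as the brightest in 24 of them. Of the 10 where it had the opposite sign, 6 had a second probe set with a mean under the 40th percentile of genes. Among 18 genes with several probe sets above that limit, all had the same sign in 14. Probe sets were fitted separately by limma over 17335 probe sets, of which 40.9% passed.

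In 2 genes the probe sets passed in opposite directions. Mrpl1 rose by 0.34 on its brightest probe set and differed by -1.42 on the other, which had a mean log2 signal of only 5.09. Mrpl57 rose by 0.28 on the brightest and differed by -1.59 on the other, with a mean of 3.84. Both dim probe sets were below the wild-type mean on all 4 knockout arrays. With all probe sets of a gene averaged, Mrpl1, Mrpl35, Mrpl38, Mrpl47, Mrpl57 and Mrps5 no longer counted as rises, while all 13 falls still passed. Among the falls only Mrpl11, Mrpl34, Mrpl51, Mrps15 and Mrps21 had several probe sets, so averaging could not change the values of the others. Mrpl27, Mrpl39, Mrpl52 and Mrps24, which also had several, still passed as rises. The averaging therefore does not compare how well rises and falls hold up. Mrps21, the largest fall, differed by 0.03 on its dim second probe set (mean 3.13), and Mrpl49 by 0.19 on its brightest and -0.57 on its second (adjusted p 0.0294). In other genes the probe sets were close, as in Mrpl39 with 0.22 and 0.21 and Mrpl52 with 0.33, 0.31 and 0.28. In Mrps15 they shared the sign but differed in size, with -0.26 and -0.45. The dim second probe set of Mrpl34 gave -0.64 where the brightest gave -0.93. Which transcripts each probe set reads was not analysed here.

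**Figure D4:**
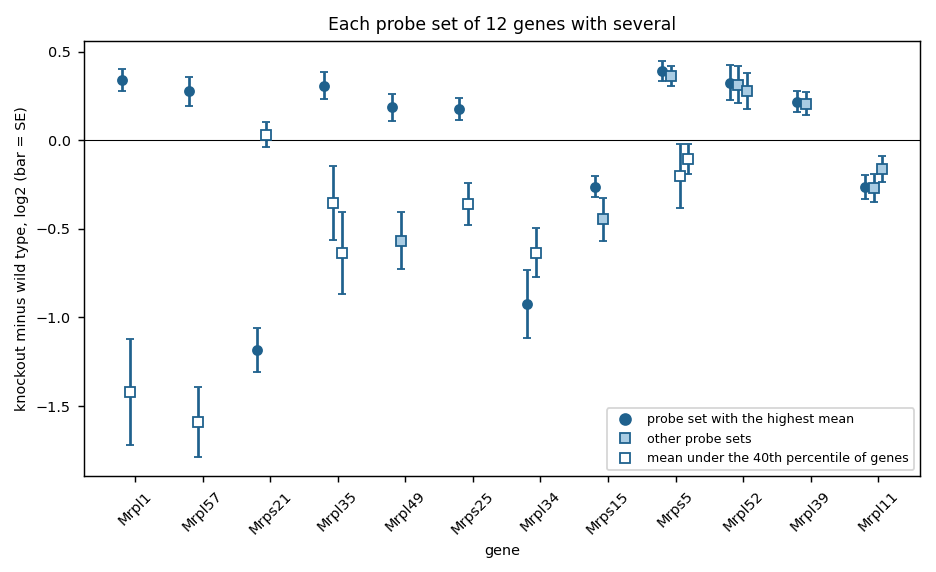
Log2 difference, knockout minus wild type, with its standard error for each probe set of 12 members with several, where circles are the brightest probe set of a gene, squares the others, and white symbols have a mean signal under the 40th percentile of genes. The probe sets of Mrpl1 and Mrpl57 point in opposite directions, and those of Mrpl39 and Mrpl52 lie close together.

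The other proteins of the mitochondrial ribosome and the machinery around it were taken as lists. Of the 21 genes named from all lists with a passing difference, 8 had a mean signal under the 40th percentile of genes (6.74), namely Rcc1l, Cars2, Mtfmt, Polg, Myc, Nrf1, Rpl12 and Ndufb1. Of 4 measured ribosomal proteins with other symbols, Dap3, a GTP-binding protein of the small subunit, rose by 0.35 (SE 0.08, limma adjusted p 0.0126). Its adjusted p was 0.203 with the pairs as random blocks, where none of the 4 passed, and 0.0553 without wild-type replicate 2. Ptcd3, Chchd1 and Gadd45gip1 differed by 0.08, 0.08 and 0.19 and did not pass. Of 10 mitochondrial translation factors, Tsfm, an elongation factor, rose by 0.25 (adjusted p 0.027) and Lrpprc, which stabilises mitochondrial mRNA, fell by 0.50 (adjusted p 0.0381). With the pairs as random blocks, their adjusted p-values were 0.481 and 0.277, and none of the 10 passed. Each also missed the threshold in 5 of the 7 fits with 1 array left out, where the adjusted p reached 0.108 and 0.122. The median of that list was 0.01.

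Genes for assembly of the mitochondrial ribosome and modification of its RNA had 10 rises and 4 falls among 27, with a median of 0.17. Clpp, a matrix protease, rose by 0.69 (SE 0.11, limma adjusted p 0.0027) and Rcc1l, an assembly factor, by 0.61 (SE 0.09, adjusted p 0.002). Mettl17, an assembly factor for the small subunit, fell by 0.56 (SE 0.06, adjusted p 0.000447). The share that passed was 51.9%, beside 43.1% of all genes. With the pairs as random blocks, only Mettl17 of these 27 passed (adjusted p 0.0492). Of 17 mitochondrial tRNA synthetases and related enzymes, 5 rose and 2 fell, with a median of 0.13. Fars2, the phenylalanine enzyme, rose by 0.94 (SE 0.10, adjusted p 0.000534), and Mtfmt, which formylates the initiator tRNA, by 0.49 (SE 0.07, adjusted p 0.00166). Cars2, the cysteine enzyme, fell by 0.59 (SE 0.14, adjusted p 0.0149) with 0.0553 without wild-type replicate 1. None of the 17 passed with the blocks.

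Of 11 genes for upkeep and transcription of mitochondrial DNA, 4 rose and 1 fell, with a median of 0.10. The mitochondrial topoisomerase Top1mt rose by 0.71 (SE 0.09, limma adjusted p 0.000775) and the protease Lonp1 by 0.49 (SE 0.07, adjusted p 0.0021). The DNA polymerase Polg fell by 0.40 (SE 0.10, adjusted p 0.0139) with 0.0542 without wild-type replicate 2. The mitochondrial transcription factor Tfam differed by 0.03 (SE 0.09, adjusted p 0.831). No gene of this list passed with the pairs as random blocks.

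Of 9 regulators of such genes, 2 rose and 1 fell, with a median of -0.05. Myc, a growth regulator with a dim mean log2 signal of 4.98, rose by 1.31 (SE 0.18, limma adjusted p 0.00123), with an adjusted p of 0.0507 with the pairs as random blocks. Nrf1 rose by 0.56 (SE 0.07, adjusted p 0.000996) and the coactivator Ppargc1b fell by 0.54 (SE 0.09, adjusted p 0.00319), with 0.11 and 0.0742 with the blocks. Gabpa measured 8.90, 8.95 and 8.88 on the wild-type arrays and 7.74, 7.74, 8.85 and 8.76 on the knockout arrays. Its difference from the wild-type mean was -1.17 on both arrays of the first pair and -0.06 and -0.14 on those of the second, and over all 4 arrays it did not pass (adjusted p 0.136). Yy1 differed by less than 0.01 (adjusted p 0.974).

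The motif shares of the members that passed are descriptions of small groups. Among the 16 rises with a promoter in the table, 5 (31.2%) held the NRF1 motif, 5 (31.2%) the ETS motif, 3 (18.8%) the YY1 motif and 0 the E-box. Among the 13 falls, 2 (15.4%) held the NRF1 motif, 8 (61.5%) the ETS motif, 3 (23.1%) the YY1 motif and 2 (15.4%) the E-box. Among the 38 members that did not pass, the counts were 5 (13.2%), 12 (31.6%), 6 (15.8%) and 3 (7.89%). Over all 67 members with a promoter the shares were 17.9%, 37.3%, 17.9% and 7.46%. Over the array genes they were 12.7%, 22.0%, 5.81% and 12.1%. No difference between these shares was tested. Of the promoters printed above, those of Mrps21 and Mrpl34 belong to falls and those of Mrpl45 and Mrps10 to rises.

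The genes for cytosolic ribosomal proteins, which serve the ribosomes outside mitochondria, were also counted. Of these, 3 of 40 passed (7.5%), beside 43.1% of all genes, and the median size of their log2 difference was 0.04, against 0.21 in the mitochondrial members. Rps6 fell by 1.33 (SE 0.06, limma adjusted p 2.02e-05), Rpl14 fell by 0.84 (SE 0.06, adjusted p 7.46e-05) and Rpl12 rose by 0.30 (SE 0.09, adjusted p 0.0379). With the pairs as random blocks Rps6 (adjusted p 0.0022) and Rpl14 (adjusted p 0.00981) passed. Rpl12 did not pass in 5 of the 7 fits with 1 array left out, with an adjusted p of up to 0.139. Of these 40 genes, 32 had a mean log2 signal above 12, where the highest single gene value was 13.56, and none of the 32 passed. All 3 calls were among the other 8 genes (37.5%). Rps6, Rpl14 and Rpl12 had mean log2 signals of only 6.94, 7.26 and 5.67, against a median of 12.83 over the list. Which transcripts their probe sets read was not analysed here. The part of signals near the top of the array in this contrast was not tested.

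Nuclear genes for subunits of the respiratory complexes were also counted, of which 76 were measured. Most of these complexes also hold products of the mitochondrial ribosome, but complex II, with Sdha to Sdhd, holds none. Of the 76, 2 rose and 30 fell, with a median of -0.11 and 42.1% past the threshold, while the ribosomal members split into 18 and 13 with a median of 0.08. Cox6a2, a subunit of cytochrome oxidase, fell by 1.77 (SE 0.21, limma adjusted p 0.000731). Ndufb1, of complex I, fell by 0.66 (SE 0.07, adjusted p 0.000592), and Sdha, of complex II, fell by 0.62 (SE 0.08, adjusted p 0.00109). With the pairs as random blocks, Cox6a2 (adjusted p 0.00643) and Sdha (adjusted p 0.0481) passed. The difference between the lists was not tested. Of the mRNAs encoded by mitochondrial DNA, 0 were measured here.

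**Figure D5:**
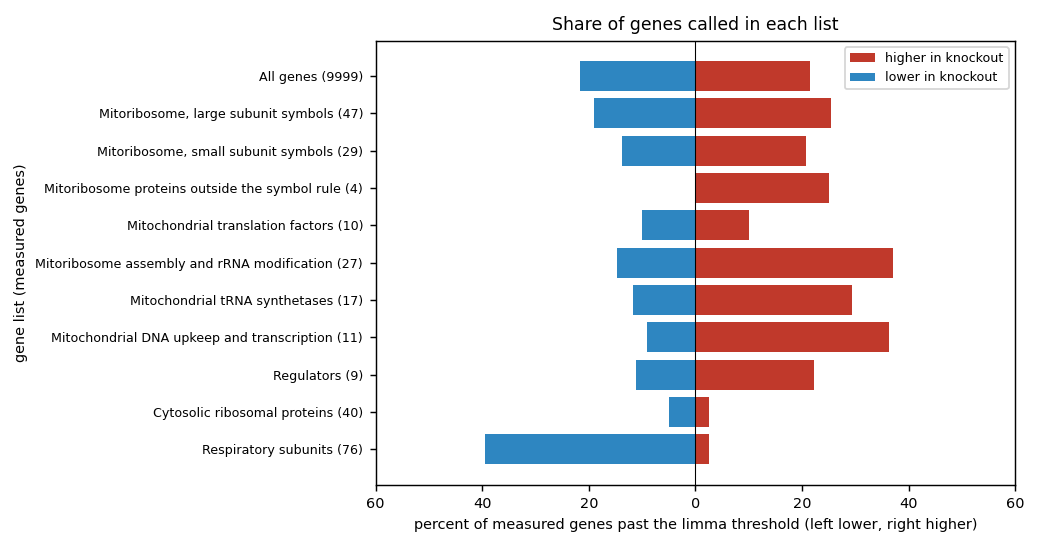
Percent of measured genes past the limma threshold in all genes, in the large and small subunit members and in each list, with bars to the right for higher and to the left for lower in the knockout arrays. The cytosolic ribosomal genes have the smallest share past the threshold in both directions together, 7.5%, and the respiratory subunits lie almost wholly on the lower side, with 30 falls and 2 rises.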

How the data were processed

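The authors deposited 1 column of normalized intensity per array for 19431 probe sets on a linear scale. Per the submitters' processing notes, RMA was used, a method that corrects background and normalizes between arrays. Normalization between arrays hides any overall change in RNA content, and array number, not read depth, limits the precision. Values were converted to log2 from the deposited intensities. Of the probe sets, 17335 had 1 symbol in the platform annotation, 532 had several and 1564 none. Each of 9999 genes was represented by its one-symbol probe set with the highest mean over 7 arrays. The groups came from the sample titles, with 3 arrays named RAW WT and 4 named RAW GfI1-1, which were taken as the Gfi1 knockout.

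Genes were fitted with limma 3.58.1 in R 4.3.3 (2 groups, moderated two-sided tests, Benjamini-Hochberg adjustment over all genes, threshold 0.05). Replicate numbers were not used to pair the arrays in the main fit. Correlations of deviations between equal numbers were 0.12, -0.09 and 0.11. Knockout replicates 1 and 2 gave nearly equal values with each wild-type array, so these correlations cannot decide whether equal numbers belong together. Alternatives were normalization, centring, a dim-gene filter, the variance prior, the probe set per gene, blocks, arrays left out and a test against a fold of 1.2.

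Named members were the 10 largest non-overlapping rises and falls, the 2 brightest of each subunit, the 3 that differed most between knockout pairs or between probe sets, misleading symbols, and up to 2 per role. Other genes were the 3 largest passing differences per list. Genes outside these rules are named where they complete a group, hold up in every fit, or show a pattern, and were chosen with their values seen. The members and lists were chosen with earlier results of these data known.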

Additional observations from a re-analysis of the deposited data

How the results depend on the processing

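With quantile normalization 25 members were higher and 14 lower, where 44.4% of all genes passed. With median centring they were 23 and 13, where 43.8% passed. With dim genes left out they were 24 and 15, where 49.0% of the genes kept passed. The other variance prior kept all calls and added 4 higher and 1 lower, where 43.4% of all genes passed. With the replicate block, 13 members were higher and 10 lower, where 38.1% of all genes passed. Of the calls without it, 6 higher and 3 lower ones no longer passed, and none of the 31 changed sign. That block pairs arrays of equal replicate number, so knockout replicate 4, which has no wild-type partner, adds nothing to the differences. Random blocks for the knockout pairs left 2 higher and 2 lower. The counts were 3 and 5 in a test against a fold of 1.2, where 17.5% of all genes passed. Without knockout replicates 1 and 2 there were 22 lower, beside 29.3% of all genes. Without replicates 3 and 4 there were 35 higher, beside 34.1% of all genes. With each array left out in turn, higher members numbered 8 to 19 and lower members 11 to 15. The large subunit median was -0.0099 with the mean of all probe sets, 0.0024 with the second probe set and 0.19 without knockout replicates 3 and 4, and large minus small was 0.0085, 0.021 and 0.12. Of 576 values of 32 named members under 18 settings, 464 kept direction and side of the threshold, 80 no longer passed, 15 newly passed and 17 changed sign. For named members with 1 probe set, the mean and the second probe set repeat the main values. Many named members were picked for large passing differences, and the same tally was not made over all genes.

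Sign changes came with the probe set in Mrpl1 (-0.54 for the mean, -1.42 for the second), Mrpl57 (-0.66 and -1.59), Mrpl38 (-0.058 for the second) and Mrps21 (0.032 for the second). Mrps6 was at 0.22 without knockout replicates 3 and 4, 0.0018 with the replicate block, and -0.28 to 0.0018 with 1 array left out. Mrpl50 was at 0.24 without knockout replicates 3 and 4 and at -0.29 to 0.013 with 1 array left out. Mrps14 was at 0.0046 with median centring, 0.0068 with the replicate block, 0.0115 without knockout replicates 3 and 4 and -0.027 to 0.013 with 1 array left out. The causes were not tested. The number of arrays limits the precision, and no member had a dim main probe set.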

Other observations

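Some members share a start region with a gene on the other strand, a pattern looked at after values were seen. Starts within 1000 bases of each other were found for 18 pairs holding 19 members. In 3 pairs both genes passed, in 6 only the member, in 3 only the partner and in 6 neither, beside 43.1% of all genes that passed. No excess of pairs that moved together was tested, and the pairs named here are examples. Mrpl51 and Ncapd2, a condensin subunit whose start lies 612 bases away, fell by 0.57 and 0.66 on the log2 scale. Mrps5 rose by 0.39 and Zfp661, 330 bases away, by 0.73, but Zfp661 was dim, at 3.29 to 3.67 on wild-type and 4.06 to 4.52 on knockout arrays. Mrpl47 rose by 0.44 while Ndufb5, a complex I subunit 306 bases away, fell by 0.33. Mrpl18 fell by 0.81 while Tcp1, a chaperonin subunit 236 bases away, differed by 0.14 (limma adjusted p 0.124). Mrpl46 and Mrps11, members on opposite strands 40 bases apart, differed by 0.24 and -0.28, and neither passed.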
